A study of Bos taurus with 21 samples.

Results

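The 9 genes described here belong to the handling of cholesterol and fatty acids in lipid-laden macrophages: APOE, ABCA1, ABCG1, NR1H3, LIPA, NPC2, SOAT1, FABP4 and FABP5. They were chosen by name, and all 9 listed symbols had a row in the count tables, which held 13570 gene rows. All 9 were among the 12333 genes that any cow had a count for, which were the genes tested.

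The RNA came from the somatic cells of milk, a mixture of leukocytes and shed mammary epithelial cells, of 21 Holstein cows, 1 library per cow. The high yielding group (HY) held 9 cows and the low yielding group (LY) held 12, assigned from a breeding index of milk production. All cows were lactating and in parity 2 to 4, and the labels gave no treatment and no age. The HY cows were sampled on days 41 to 268 of lactation (median 168) and the LY cows on days 52 to 270 (median 211.5). The milk fat value of a cow, for which no unit was given, was -10.109 to 10.928 in HY and -14.377 to -2.782 in LY. It was negative in every LY cow, so it cannot be a fat content of the sampled milk. Between 7878557 and 28541904 reads were counted on genes in each library, and cows are named by their numbers.

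A foam cell is a macrophage filled with droplets of cholesteryl ester and triglyceride, and milk macrophages meet such lipid as milk fat globules. Ingested cholesteryl ester is cleaved in the lysosome by the acid lipase LIPA, and NPC2 hands the freed cholesterol to the membrane protein NPC1. SOAT1 esterifies cholesterol again for storage. The liver X receptor alpha, NR1H3, senses oxidised cholesterol and switches on the transporters ABCA1 and ABCG1 and the apolipoprotein APOE, which carry cholesterol out of the cell. FABP4 and FABP5 are small proteins that bind fatty acids in the cytosol.

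Levels are given as CPM, the counts of a gene relative to all counts of its library, with the library scaled by the trimmed mean of M-values (TMM). They were not divided by transcript length, so they compare cows within a gene and not genes with each other. In such bulk libraries a lower share of cells of a type and less RNA per cell cannot be told apart. The libraries of the HY cows 3262 and 3280 stood apart, with the lowest TMM factors, 0.46011 and 0.49827, and the highest mammary epithelial levels of all cows. Calls that were lost without both cows are given beside the results.

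The cholesterol carrier APOE ranged from 241 to 3676 CPM over the 21 cows. In HY its lowest, median and highest levels were 241, 1209 and 3410 CPM. In LY they were 339, 883 and 3676 CPM. The ranges of the groups overlapped over most of their length, with the lowest level in cow 3280 and the highest in the LY cow 7643.

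The transporter ABCA1, which loads cholesterol onto lipid-poor apolipoprotein A-I, differed 105-fold between its lowest and highest cow. In HY its lowest, median and highest levels were 4.42, 75.9 and 466 CPM. In LY they were 9.73, 54.0 and 286 CPM. The groups overlapped, and the 2 high cows were the HY cow 2920 and the LY cow 3272.

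The transporter ABCG1, which passes cholesterol to formed high-density lipoprotein, had the fewest counts among the members. In HY its lowest, median and highest levels were 0, 4.70 and 24.1 CPM. In LY they were 2.06, 7.56 and 107 CPM. The level of 0 was in cow 3280, where a count of 0 allows up to 0.589 CPM (3 counts). Cow 7643 had 2377 counts of ABCG1, and the next highest level was that of the HY cow 3014.

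The receptor NR1H3 had a lowest, median and highest level of 17.9, 59.7 and 102 CPM in HY and of 17.1, 35.8 and 191 CPM in LY. The groups overlapped, and the LY cows 2893 and 3161 had the 2 highest levels, 191 and 166 CPM.

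In the lysosome, LIPA had a lowest, median and highest level of 673, 1366 and 2306 CPM in HY and of 544, 1560 and 2933 CPM in LY. NPC2 was the least variable member, with a coefficient of variation of 31.4% over the 21 cows. Its lowest, median and highest levels were 638, 843 and 1145 CPM in HY and 479, 787 and 1625 CPM in LY. For both genes the lowest cow was 7643 and the highest was the LY cow 3198.

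SOAT1, the esterifying enzyme, had a lowest, median and highest level of 304, 448 and 605 CPM in HY and of 242, 338 and 971 CPM in LY. Its highest level was in cow 2893, which also had the highest NR1H3.

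Of the fatty acid binding proteins, FABP4 had a lowest, median and highest level of 142, 307 and 2057 CPM in HY and of 95.7, 1030 and 1918 CPM in LY. The LY median was above the HY median, but the ranges overlapped almost completely. FABP5 had a lowest, median and highest level of 532, 1402 and 2535 CPM in HY and of 806, 1398 and 2322 CPM in LY. The group medians of FABP5 were close to each other. Cow 7643 held the highest level of APOE and ABCG1 and the lowest of LIPA, NPC2 and FABP4.

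**Figure D1:**
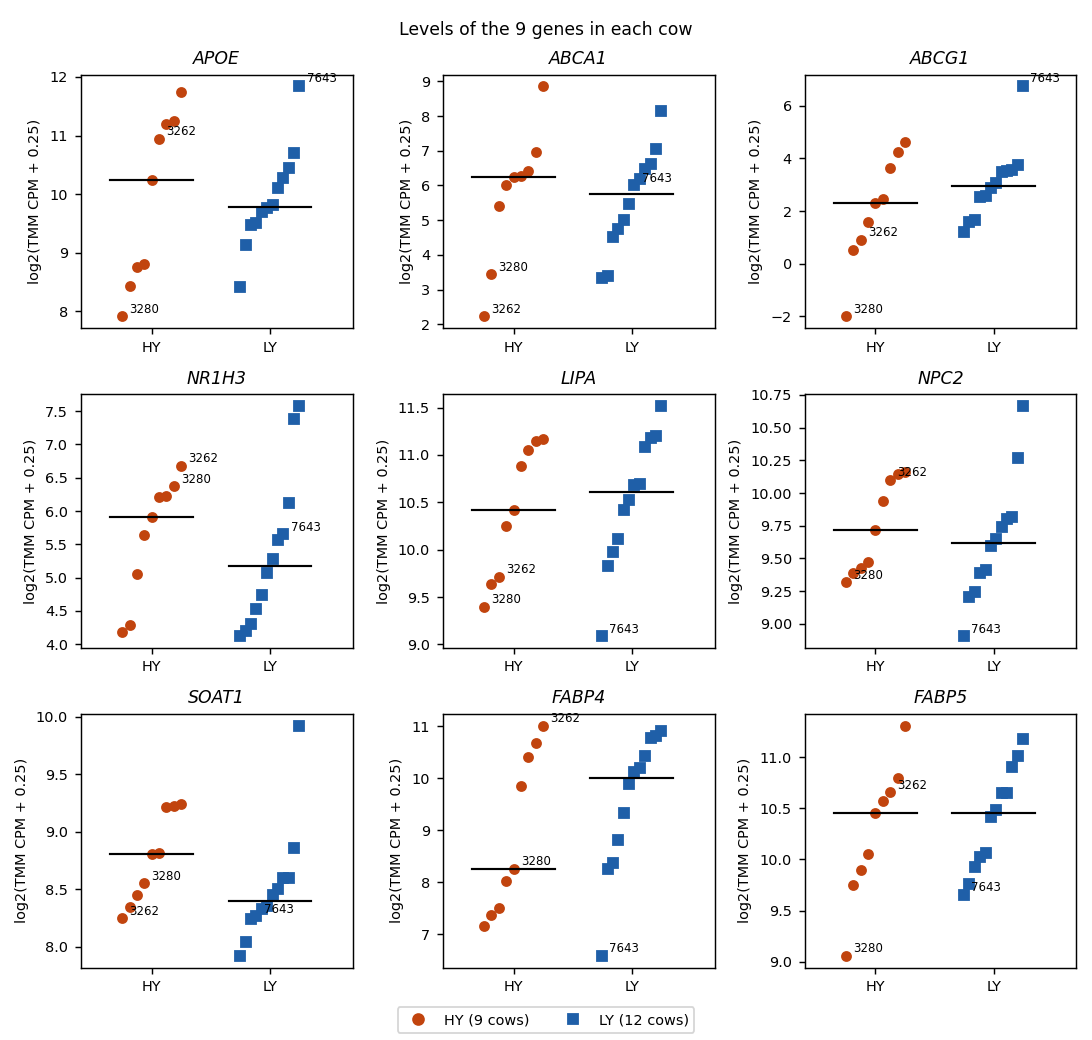
Level of each of the 9 genes as log2(TMM CPM + 0.25), on the y axis, in the HY cows (circles) and LY cows (squares), with the group median as a bar. The ranges of HY and LY overlap for every gene, and cows 3262, 3280 and 7643, which are labelled, sit at the edge of several panels.

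The first comparison asked which of the 9 genes rose with the macrophage content of the milk cells. The macrophage level of a cow was the mean log2 level of 12 marker genes (CD68, CD14, CSF1R, CD163, MSR1, C1QA, C1QB, C1QC, AIF1, FCGR1A, VSIG4 and MERTK), none of which is a member. Another 5 listed markers, among them MRC1, MARCO and SIGLEC1, were not used here. The macrophage level ranged from 5.91 in cow 3280 to 8.23 in cow 3198, and its median was 7.17 for HY and 7.11 for LY. A slope of 1 means that a gene's level changed in proportion to that of the markers.

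APOE, LIPA and FABP5 rose with the macrophage level, and no member fell. The slope of APOE was 1.36 ± 0.29 (SE, n = 21), steeper than that of any other member (edgeR quasi-likelihood test with Benjamini-Hochberg adjustment over all genes, adjusted p = 0.00371). The slope of LIPA was 0.73 ± 0.20 (adjusted p = 0.0156) and that of FABP5 was 0.71 ± 0.16 (adjusted p = 0.00568). Thus 3 of 9 members were called at an adjusted p under 0.05, beside 13% of all genes tested, of which 5.97% rose and 7.05% fell. The median slope was 0.71 over the members and 0.00 over all genes tested.

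FABP4 and NPC2 had positive slopes that missed the threshold. The slope of FABP4 was 1.07 ± 0.46 (adjusted p = 0.125) and that of NPC2 was 0.41 ± 0.15 (adjusted p = 0.0629). Their unadjusted p-values of 0.0295 and 0.00952 were under 0.05, as were those of 28.6% of all genes. In the plot against the macrophage level, FABP4 was low in several cows at middle and high macrophage levels, including cow 2814 with 142 CPM at the level 8.11.

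The cholesterol efflux transporters, their receptor and the esterifying enzyme did not pass the test. ABCA1 had a slope of 0.87 with a 95% interval of -0.36 to 2.10 (adjusted p = 0.371). ABCG1 had a slope of 0.11 with an interval of -1.58 to 1.81 (adjusted p = 0.964). NR1H3 had a slope of -0.02 with an interval of -0.68 to 0.65 (adjusted p = 0.991). SOAT1 had a slope of -0.22 with an interval of -0.57 to 0.14 (adjusted p = 0.453). The intervals of ABCA1 and ABCG1 still held a slope of 1, and those of NR1H3 and SOAT1 did not. The slopes of the markers themselves ran from 0.25 for AIF1 (95% interval -0.09 to 0.59) to 1.76 for C1QC. Of the 12 markers, 9 were called and 3 were not. An interval without 1 thus does not set a gene apart from every marker.

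Mammary epithelial markers moved against the macrophage level. Of the 16 listed, 9 fell and none rose at an adjusted p under 0.05, and their median slope was -2.32. With the neutrophil, T cell and epithelial levels in the same fit, FABP5 had a slope of 1.11 ± 0.20 (adjusted p = 0.00772) and NPC2 passed with 0.74 ± 0.16 (adjusted p = 0.025). In that fit, which called 1.69% of all genes, APOE had a slope of 1.11 ± 0.36 (adjusted p = 0.116) and LIPA one of 0.83 ± 0.28 (adjusted p = 0.138), and their calls were lost. Without cow 3280 the slope of LIPA was 0.62 (adjusted p = 0.0714), and the calls of APOE and FABP5 were made without any 1 of the 21 cows. With CSF1R, CD68 and CD14 as the only markers, a fit that called 23.6% of all genes, APOE kept a slope of 1.14 (adjusted p = 0.00287), but FABP5 had 0.39 (adjusted p = 0.142) and LIPA 0.32 (adjusted p = 0.315), and both calls were lost. Within the 16 cows of the lower mapping rate, the slopes were 1.30 for APOE, 0.75 for LIPA and 0.72 for FABP5 (adjusted p = 0.00227, 0.0194 and 0.0145). In the 5 cows of the higher rate, whose macrophage levels lay between 6.87 and 7.25, they were 2.59 ± 2.90, -1.96 ± 2.67 and -0.30 ± 2.27, and none was called (adjusted p = 0.825 or more).

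**Figure D2:**
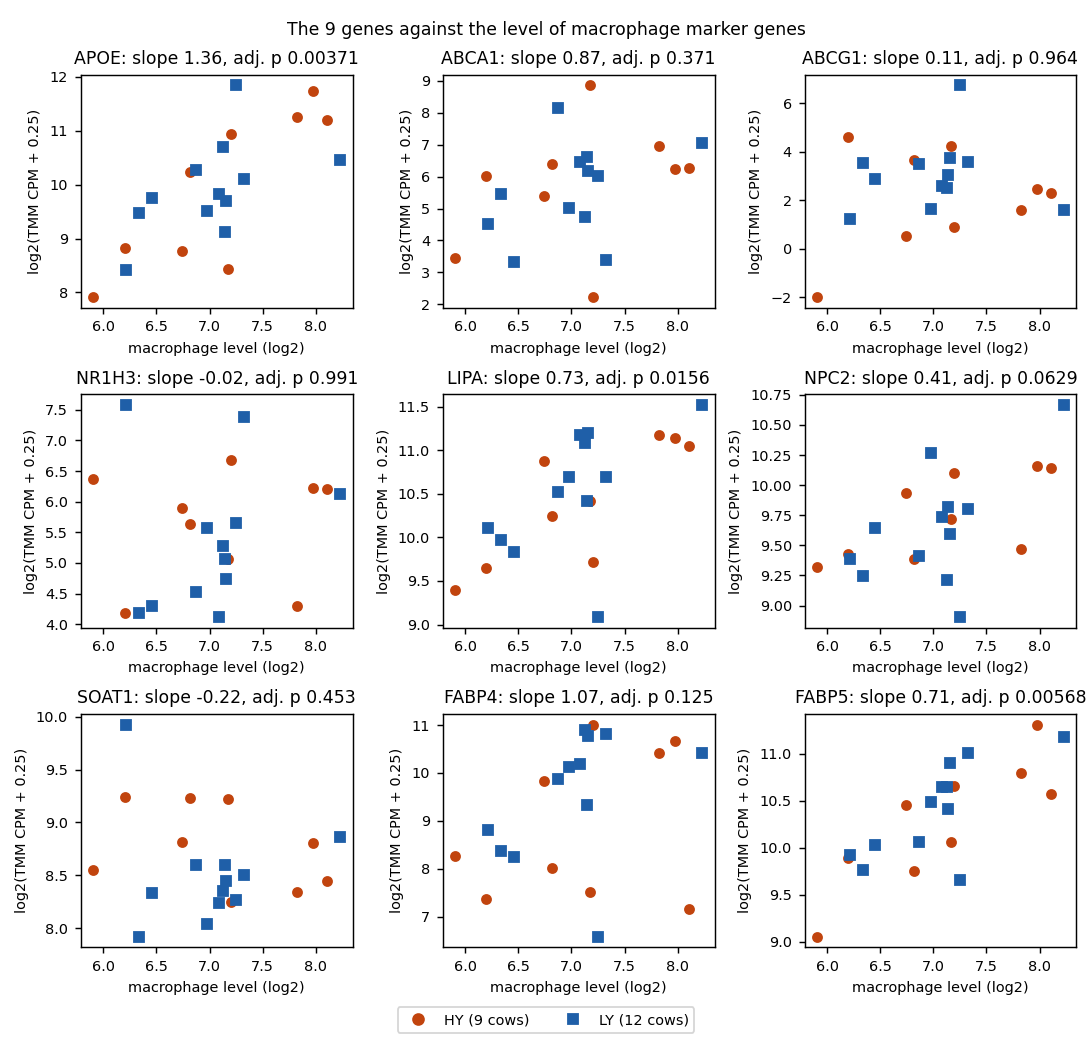
Level of each of the 9 genes as log2(TMM CPM + 0.25), on the y axis, against the macrophage level of the cow on the x axis (log2), for HY (circles) and LY (squares). Each panel gives the edgeR slope and adjusted p; APOE, LIPA and FABP5 rise from left to right, while NR1H3 and SOAT1 show slopes of -0.02 and -0.22.

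Genes that work beside the members were counted from lists that were chosen with earlier results of these data known. Of all genes tested, 5.97% rose and 7.05% fell with the macrophage level at an adjusted p under 0.05. These shares stand beside the count of each list below. Among partners and targets of the liver X receptor, 3 of 11 tested genes rose with the macrophage level and none fell. They were LPCAT3, a phospholipid remodelling enzyme, with a slope of 0.92 (adjusted p = 0.000125), PLTP, the phospholipid transfer protein, with 1.06 (adjusted p = 0.000929), and SREBF1, a regulator of lipid synthesis, with 0.72 (adjusted p = 0.0342). MYLIP, which promotes the breakdown of the low-density lipoprotein receptor, had a slope of -0.75 that missed the threshold (adjusted p = 0.0705).

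For lysosomal and stored cholesterol, 4 of 13 tested genes rose and none fell. HILPDA, a lipid droplet protein, had a slope of 1.15 (adjusted p = 0.00018). SCARB2, a lysosomal membrane protein, had a slope of 0.73 (adjusted p = 0.00553), and CYP27A1, which makes 27-hydroxycholesterol, one of 0.82 (adjusted p = 0.00629). The other was NPC1, the partner of NPC2, with a slope of 0.88 (adjusted p = 0.024). PLIN2, a lipid droplet coat protein on the same list, went the other way. Its slope of -0.76 just missed the threshold (unadjusted p = 0.00665, adjusted p = 0.0505).

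Of 10 genes known from lipid-associated macrophages, 5 rose and none fell. LGALS3 (galectin 3) had a slope of 1.29, FOLR2 (a folate receptor) one of 1.23, LGMN (legumain) one of 0.97 and CD9 (a tetraspanin) one of 0.95, with adjusted p-values of 0.000264, 0.00235, 0.001 and 0.00216. TREM2, the lipid receptor for which such macrophages are known, was the fifth, with a slope of 0.90 (adjusted p = 0.00521). The other 5 were not called. Their slopes were 0.65 for CTSD (adjusted p = 0.146), 0.40 for PLA2G7 (adjusted p = 0.427) and 0.25 for GPNMB (adjusted p = 0.627). Those of TYROBP and SPP1 were 0.08 (adjusted p = 0.897) and 0.07 (adjusted p = 0.95). Among uptake receptors, 1 of 7 rose, the scavenger receptor STAB1, with a slope of 0.64 (adjusted p = 0.0246). CXCL16, a scavenger receptor and chemokine, had the next lowest p, with a slope of 0.59 (adjusted p = 0.0877).

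Among 7 tested genes of the PPAR and fatty acid binding list, none rose and 1 fell, FABP3, with a slope of -2.63 (adjusted p = 0.0107). FABP3 is the heart-type binding protein, is also made by the lactating mammary epithelium and is on the epithelial list. The next lowest p-values were those of the fatty acid receptor PPARA, with a slope of 0.43 (adjusted p = 0.188), and of PPARG, the receptor known to drive FABP4, with one of -0.25 (adjusted p = 0.511).

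FABP4 is also known from adipocytes and endothelial cells. The adipocyte list had 4 of 6 genes with counts, with a summed level of 1.96 to 37.3 CPM in HY and 2.29 to 31.0 CPM in LY. The defining adipocyte gene LEP was at 0 counts in every cow, and PLIN1 and CIDEC had means of 0.58 and 0.27 CPM. RBP4, the retinol carrier, had the highest mean of the list, 8.78 CPM, and rose with the macrophage level with a slope of 1.35 (adjusted p = 0.0399), and no other gene of the list was called. The 6 endothelial genes had a summed level of 36.5 to 334 CPM in HY and 37.6 to 179 CPM in LY, and CDH5, KDR, TEK and CLDN5 had means under 1 CPM. VWF, which platelets also carry, rose with the macrophage level with a slope of 1.11 (adjusted p = 0.00432). PECAM1, which leukocytes also carry, had a mean of 16.3 CPM and a slope of 0.08 (adjusted p = 0.95). The part of these cells in the level of FABP4 was not tested.

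The 9 genes were also set against the other cell types of the milk, in fits chosen after earlier results were known. ABCG1 rose with the level of 10 T cell markers (CD3D, CD3E, LCK and others), with a slope of 1.14 ± 0.23 (SE, n = 21, edgeR adjusted p = 0.00381). NR1H3 fell as the T cell level rose, with a slope of -0.52 ± 0.16 (adjusted p = 0.0375). These were 2 of 9 members, beside 10.1% of all genes called, 4.46% upwards and 5.68% downwards. With the 4 cell type levels in 1 fit, the T cell slopes were 0.97 for ABCG1 (adjusted p = 0.00431) and -0.61 for NR1H3 (adjusted p = 0.0389), with 6.28% of all genes called.

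ABCG1 passed the T cell test without any 1 cow, cow 7643 included, and over these fits its slope ranged from 0.79 to 1.37. Within the 16 cows of the lower mapping rate, which do not include cow 7643, the slope of ABCG1 was 0.82 ± 0.32 (adjusted p = 0.181) and that of NR1H3 was -0.58 ± 0.21 (adjusted p = 0.149). In the 5 cows of the higher rate they were 1.99 ± 0.57 (adjusted p = 0.758) and 0.29 ± 0.35 (adjusted p = 0.837). NR1H3 was called in 13 of the 21 fits without 1 cow, and without cow 2893 its slope was -0.39 (adjusted p = 0.163). Without cows 3262 and 3280 the slope of NR1H3 was -0.54 (adjusted p = 0.11), and with the libraries scaled to total counts alone it was -0.22 (adjusted p = 0.22).

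ABCG1 also had a slope of 1.67 ± 0.52 on the neutrophil level (adjusted p = 0.0457, 8.57% of all genes called), which was called in 6 of the 21 fits without 1 cow. With the 4 cell type levels in 1 fit it was 0.998 ± 0.317 (adjusted p = 0.0722, 4.99% of all genes called), and without cows 3262 and 3280 it was 1.27 (adjusted p = 0.176), and the call was lost in both. No other member was called on the neutrophil level.

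Against the mammary epithelial level, ABCA1 fell with a slope of -0.51 ± 0.16 (adjusted p = 0.0212), ABCG1 with -0.51 ± 0.15 (adjusted p = 0.0131) and APOE with -0.27 ± 0.08 (adjusted p = 0.0138), beside 21.9% of all genes called, 9.82% of all downwards. All 3 calls were lost with the 4 cell type levels in 1 fit, where the epithelial slopes were -0.34 for ABCA1 (adjusted p = 0.486), -0.25 for ABCG1 (adjusted p = 0.35) and -0.07 for APOE (adjusted p = 0.793), with 4.64% of all genes called. With the macrophage level in the fit, the epithelial slope of APOE was -0.12 (adjusted p = 0.348) and that of ABCA1 was -0.53 (adjusted p = 0.0726). Without cow 7643 the epithelial slope of ABCG1 was -0.20 (adjusted p = 0.428), and without cow 3280 that of ABCA1 was -0.45 (adjusted p = 0.0805). Without both cows 3262 and 3280, the slopes were -0.37 for ABCA1 (adjusted p = 0.146), -0.42 for ABCG1 (adjusted p = 0.0533) and -0.38 for APOE (adjusted p = 0.00136). Alternatives of the epithelial fit, other than leaving out 1 cow and the fit with 4 levels, included both mapping rate sets. Among them the call was lost in 5 of 7 for ABCA1, 3 of 6 for ABCG1 and 2 of 7 for APOE. No slope changed sign.

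ABCA1 and NR1H3 moved in opposite directions with a property of the library. Each cow's long gene difference was the median log2 level of genes spanning over 100 kb of the genome minus that of genes under 10 kb, with the members left out. It ranged from -1.42 in cow 3262 to 0.46 in cow 3272. The slope of ABCA1 on this difference was 2.36 ± 0.39 (edgeR adjusted p = 4.73e-05) and that of NR1H3 was -1.53 ± 0.23 (adjusted p = 1.85e-05), and no other member was called. Of all genes, 36.5% were called in this fit, 16.8% upwards and 19.6% downwards. Both members were called without any 1 cow and within the 16 cows of the lower mapping rate, with slopes there of 2.09 for ABCA1 and -1.69 for NR1H3. In the 5 cows of the higher rate the slopes were 2.28 ± 0.75 (adjusted p = 0.0884) and -0.68 ± 0.26 (adjusted p = 0.131). ABCA1 itself spans over 100 kb and NR1H3 lies between the limits. LIPA also spans over 100 kb and had a slope of 0.50 (adjusted p = 0.138).

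**Figure D3:**
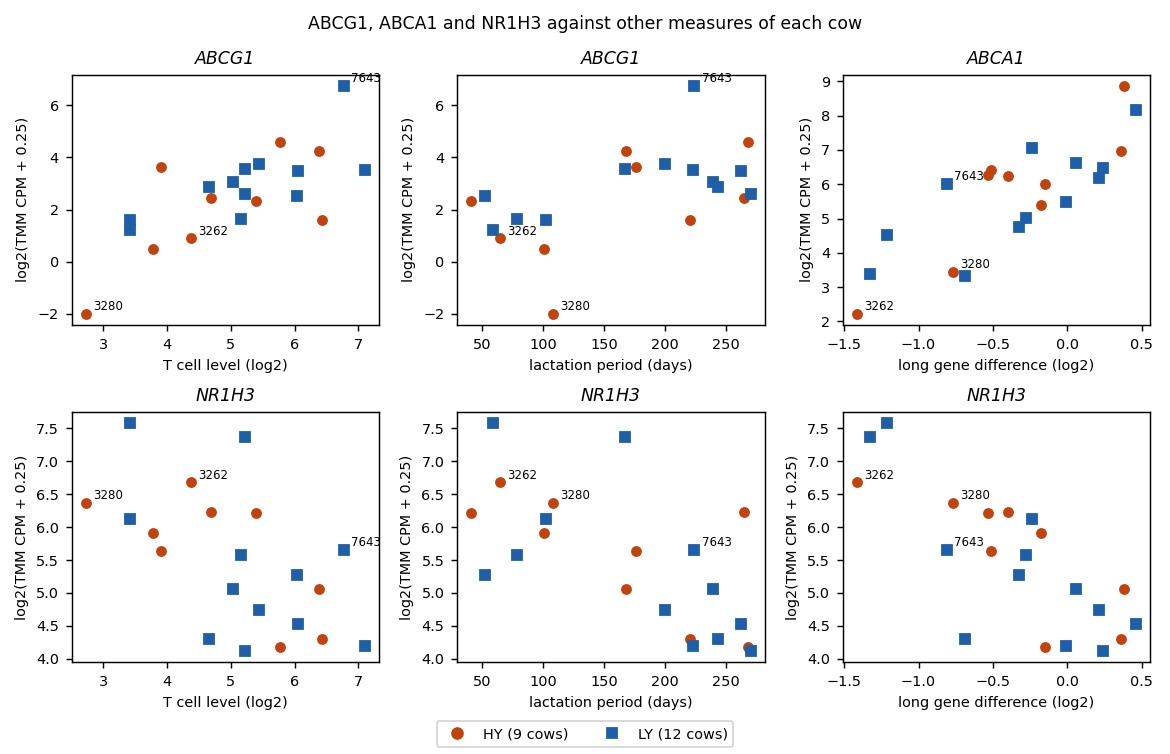
Levels of ABCG1, ABCA1 and NR1H3 as log2(TMM CPM + 0.25), on the y axes, against the T cell level (log2), the lactation period (days) and the long gene difference (log2) on the x axes, for HY (circles) and LY (squares). ABCG1 rises with the T cell level, and ABCA1 rises and NR1H3 falls with the long gene difference. Cow 3280 is lowest in both ABCG1 and the T cell level. ABCG1 is highest in cow 7643, while the T cell level is highest in cow 3264.

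The next comparison asked whether the 9 genes changed over lactation, with parity as a covariate. No sample was taken between day 108 and day 167. In the 8 cows from 41 to 108 days, the lowest, median and highest levels of ABCG1 were 0, 2.40 and 5.48 CPM. In the 13 cows from 167 to 270 days they were 2.76, 11.2 and 107 CPM. NR1H3 showed 38.4, 71.6 and 191 CPM in the first 8 cows and 17.1, 26.5 and 166 CPM in the other 13. The median of ABCG1 was thus higher and that of NR1H3 lower in the later cows, with overlapping ranges for both.

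No member was called by edgeR, beside 0.00811% of all genes (1 gene). NR1H3 had a slope of -0.84 ± 0.24 per 100 days (log2, SE, n = 21, unadjusted p = 0.00174, adjusted p = 0.0961). ABCG1 had a slope of 1.40 ± 0.46 (unadjusted p = 0.0056, adjusted p = 0.112). These 2 of 9 members were under an unadjusted p of 0.05, the threshold used by the study, as were 2611 genes or 21.2% of all. DESeq2 called 742 genes, among them ABCG1 with 1.47 (adjusted p = 0.0168) and NR1H3 with -0.83 (adjusted p = 0.0198), and limma called none.

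Within the 16 cows of the lower mapping rate, the slopes were 1.14 for ABCG1 (adjusted p = 0.164) and -0.90 for NR1H3 (adjusted p = 0.155). In the 5 cows of the higher rate they were 1.38 ± 0.81 and -0.07 ± 0.42 (adjusted p = 1 for both). Without cows 3262 and 3280 they were 1.25 (adjusted p = 0.362) and -0.80 (adjusted p = 0.35). Without the LY cow 3407, NR1H3 passed with -0.95 (adjusted p = 0.0447). The T cell level moved with lactation too, all 10 of its markers having a positive slope and none passing the test, with a median of 0.53. With the T cell level in the fit, the slope per 100 days was 0.79 ± 0.41 for ABCG1 and -0.60 ± 0.25 for NR1H3. With the long gene difference in the fit, the slope of NR1H3 was -0.38 ± 0.18 and that of ABCG1 was 1.49 ± 0.46. The part of either measure in the lactation slopes was not tested.

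ABCA1 had a slope of 0.72 ± 0.39 per 100 days (adjusted p = 0.283), which was 0.05 ± 0.29 with the long gene difference in the fit. The slope was 0.09 for APOE, -0.07 for LIPA, -0.17 for NPC2, -0.09 for SOAT1, -0.04 for FABP4 and -0.0057 for FABP5, with adjusted p-values of 0.458 or more. The intervals were narrow for several of them, as for FABP5, from -0.35 to 0.34 per 100 days, and SOAT1, from -0.36 to 0.19. None of the 5 pathway lists held a called gene. The lowest p of each list was that of APOC2, an apolipoprotein that activates lipoprotein lipase, with a slope of 1.80 (adjusted p = 0.0961), the scavenger receptor OLR1 with 0.62 (adjusted p = 0.112), FABP3 with -1.50 (adjusted p = 0.152), CYP27A1 with -0.37 (adjusted p = 0.23) and TREM2 with -0.32 (adjusted p = 0.326). APOC2 had a mean of 0.027 CPM, a highest level of 0.22 CPM and no counts in 17 cows. Its slope thus rested on very few reads.

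The lactation slope did not pass a test of difference between HY and LY for any of the 9 genes. The lowest unadjusted p was that of SOAT1, at 0.0405, where the slope in HY was higher by 0.56 ± 0.26 per 100 days (adjusted p = 1). The difference was -0.33 for APOE, 0.13 for ABCA1, -0.36 for ABCG1, 0.57 for NR1H3, 0.29 for LIPA, 0.07 for NPC2, 0.17 for FABP4 and 0.28 for FABP5. In this edgeR fit 0% of all genes were called, and 308 genes (2.5%) had an unadjusted p under 0.05.

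The milk fat comparison asked whether the level of lipid-handling genes went with the milk fat value of the cow, given parity and lactation period. The fat content of the sampled milk itself was not tested. No member was called by edgeR, beside 0% of all genes, with 368 genes (2.98%) under an unadjusted p of 0.05, and DESeq2 and limma called none as well. FABP4 had the lowest p, with a slope of -0.73 ± 0.37 per 10 units of milk fat (unadjusted p = 0.0605, adjusted p = 1). Its 95% interval was -1.50 to 0.04. ABCA1 had a slope of 0.58 with an interval of -0.35 to 1.51, and ABCG1 one of 0.27. The value of ABCA1 was 0.06 without cow 2920, its highest cow, 0.03 in the 16 cows of the lower mapping rate (unadjusted p = 0.947) and 0.85 without cows 3262 and 3280 (unadjusted p = 0.0495, adjusted p = 1). Without cows 3262 and 3280 that of ABCG1 was 0.54, and the slope of FABP4 was -0.83 (unadjusted p = 0.0316, adjusted p = 1). The slope was 0.21 for APOE, with 0.61 in the 16 cows, 0.08 for NR1H3, -0.22 for LIPA, -0.04 for NPC2, 0.14 for SOAT1 and -0.20 for FABP5.

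The milk fat value went with the yield group, since every LY cow was below 0. The slopes within each group were fitted with no covariate, so neither parity nor lactation period was adjusted for. Within the 12 LY cows, the slope of FABP4 was -2.21 ± 0.64 per 10 units (unadjusted p = 0.00332, adjusted p = 0.614), that of LIPA was -1.21 ± 0.48 (unadjusted p = 0.0228, adjusted p = 0.775) and that of ABCG1 was 2.32 ± 0.89 (unadjusted p = 0.0189, adjusted p = 0.758). These were 3 of 9 members under an unadjusted p of 0.05, beside 5.68% of all genes in the LY fit. The slope of the other members in LY was 0.29 for APOE, 0.46 for ABCA1, 0.78 for NR1H3, -0.41 for NPC2, 0.52 for SOAT1 and -0.82 for FABP5. Within the 9 HY cows, the slopes were -1.04 ± 1.37 for FABP4, 0.22 ± 0.55 for LIPA and -0.20 ± 0.66 for ABCG1. No member was under an unadjusted p of 0.05 in HY, beside 1.47% of all genes. None of these was called, and 0% of all genes were called by edgeR in either group. The difference between the slopes of HY and LY was fitted with all 21 cows, with parity and lactation period as covariates. It was 1.53 ± 0.79 for LIPA (unadjusted p = 0.0658, adjusted p = 0.489), the lowest p among the members. In that fit 0% of all genes were called by edgeR, with 1272 genes (10.3%) at an unadjusted p under 0.05. The difference was -0.52 for APOE, 2.27 for ABCA1, -0.75 for ABCG1, -1.63 for NR1H3, 0.20 for NPC2, -0.42 for SOAT1, 1.16 for FABP4 and 0.64 for FABP5, each with an SE of 0.54 or more. For LIPA the slope in LY had an unadjusted p under 0.05 and that in HY did not, but the difference itself did not pass the test.

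Between HY and LY, none of the 9 genes was called by edgeR, beside 0% of all genes, with 580 genes (4.7%) under an unadjusted p of 0.05, and DESeq2 and limma called none. The largest fitted difference was that of ABCG1, which was lower in HY by a log2 difference of -0.996 ± 0.732 (adjusted p = 0.999). Within the 16 cows of the lower mapping rate, which leave out cow 7643, it was -0.10 ± 0.71, and without cows 3262 and 3280 it was -0.66 ± 0.72. NPC2 had a difference of 0.06 with a 95% interval of -0.40 to 0.52, and FABP5 one of -0.06 with an interval of -0.62 to 0.50. ABCA1 had a difference of 0.51 with a wider interval, -0.76 to 1.79. The difference was 0.29 for APOE, -0.03 for NR1H3, -0.12 for LIPA, 0.21 for SOAT1 and -0.34 for FABP4. In the 16 cows APOE had a difference of 0.83 (unadjusted p = 0.0876), NR1H3 one of -0.23, LIPA one of -0.23, ABCA1 one of 0.21, SOAT1 one of 0.08 and FABP5 one of -0.15. Without cows 3262 and 3280 the difference was 0.88 for ABCA1, -0.57 for FABP4, 0.34 for SOAT1 and -0.29 for NR1H3. The higher mapping rate set held 1 HY cow, assumed to vary like the LY cows, and there the difference was -2.32 ± 1.14 for APOE and 2.02 ± 0.92 for ABCA1. None of these passed the test. Among the pathway lists, PLIN2, which coats lipid droplets and milk fat globules, had a difference of 1.32 ± 0.39 (unadjusted p = 0.00226, adjusted p = 0.999). Its level had a median of 1639 CPM and a highest value of 14651 CPM, and its difference without cows 3262 and 3280 is not given here.

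With the milk yield value of the cow in place of the group, again with parity and lactation period, no member was called and 0% of all genes were called by edgeR, with 464 genes (3.76%) under an unadjusted p of 0.05. DESeq2 and limma called none. The slope per 100 units was 0.08 for APOE, 0.10 for ABCA1, -0.17 for ABCG1, 0.02 for NR1H3, -0.02 for LIPA, 0.02 for NPC2, 0.04 for SOAT1, -0.13 for FABP4 and -0.0034 for FABP5. The narrowest interval was that of SOAT1, from -0.05 to 0.13.

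**Figure D4:**
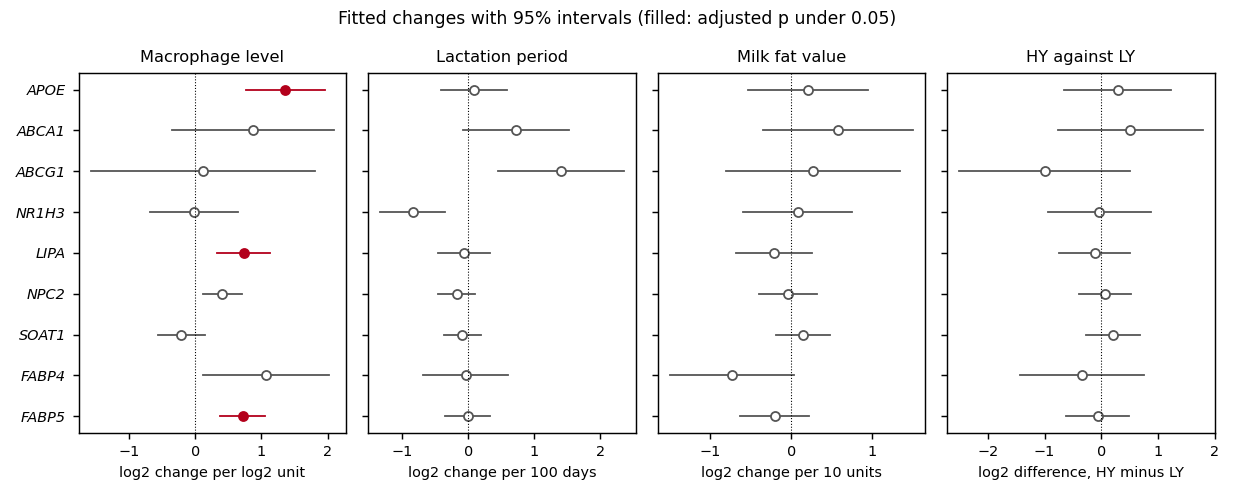
Fitted log2 change of each of the 9 genes (points) with its 95% interval (lines) per log2 unit of macrophage level, per 100 days of lactation, per 10 units of milk fat, and in HY minus LY, on the x axes. Filled red points are genes at an adjusted p under 0.05, which are APOE, LIPA and FABP5 in the first panel and none in the others.

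The 9 genes did not move as 1 group over the cows. Of their 36 pairs, 5 had a Pearson r over 0.5, all among LIPA, NPC2, FABP4 and FABP5. Another 14 pairs had an r under 0, and the median r was 0.11. The share of pairs over 0.5 among all genes was not computed, so these counts have no background beside them. LIPA and FABP5 went together most closely (r = 0.81, permutation p = 1e-05, the smallest that 100000 permutations can give, rho = 0.82, permutation p = 3e-05, n = 21). Without the 2 cows with the most distant LIPA levels r was 0.75, and within the 16 cows of the lower mapping rate it was 0.81. FABP4 and FABP5 followed (r = 0.74, permutation p = 0.0001, rho = 0.79, permutation p = 4e-05), with r = 0.82 without the 2 cows most distant in FABP4 and 0.74 within the 16 cows. These p-values were not adjusted for the 36 pairs, and all points share the library of their cow and its scaling.

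NPC2 had r = 0.67 with FABP5 and 0.55 with LIPA. The first was 0.57 without the 2 cows most distant in NPC2. The second was 0.39 without the 2 cows most distant in LIPA. Within the 16 cows they were 0.71 and 0.56. FABP4 had r = 0.62 with LIPA, which was 0.50 without the 2 cows most distant in LIPA. The receptor NR1H3 had a negative r with both transporters it is known to induce, -0.45 with ABCA1 (permutation p = 0.0406, rho = -0.42, permutation p = 0.0586) and -0.37 with ABCG1 (permutation p = 0.0963, rho = -0.47, permutation p = 0.0323). Without the 2 most distant cows these r values were -0.40 and -0.46, and within the 16 cows they were -0.42 and -0.43. As given above, NR1H3 fell and ABCA1 rose with the long gene difference, and NR1H3 fell and ABCG1 rose with the T cell level. The part of these measures in the negative r values was not tested. ABCA1 and ABCG1 had r = 0.42 with each other. Negative values were not limited to NR1H3, as APOE and SOAT1 had r = -0.40 (permutation p = 0.0755).

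**Figure D5:**
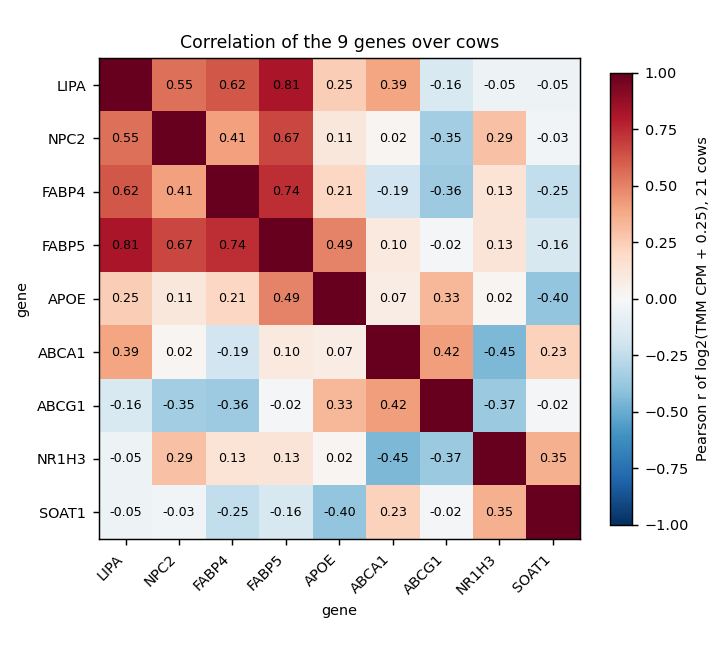
Pearson r of log2(TMM CPM + 0.25) over the 21 cows for each pair of the 9 genes, which stand on both axes, from -1 (blue) to 1 (red). LIPA, NPC2, FABP4 and FABP5 form a block with r from 0.41 to 0.81, and NR1H3 is negative with ABCA1 and ABCG1.

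For each member, the 3 genes with the highest Pearson r of log2 levels over the 21 cows were taken from all genes with a mean of at least 1 CPM, as a description without a test. FABP5 was most like FCGR1A, an immunoglobulin receptor (r = 0.91), and the third was VSIG4, a complement receptor (r = 0.89). Both are on the macrophage list. FCGR1A was also first for NPC2 (r = 0.77), and MSR1, a macrophage scavenger receptor, was second for FABP4 (r = 0.84) after CENPH. LIPA was most like ADTRP (r = 0.91), LHFPL2 and GALK2, of which the last 2 span over 100 kb like LIPA.

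APOE was most like PFKP, a glycolytic phosphofructokinase (r = 0.91), then POLD1 and SCAP, a sterol-sensing escort protein. ABCA1 was most like PRRC2C (r = 0.93), HIPK1 and AFF1. ABCG1 was most like EDN1, the precursor of endothelin (r = 0.91), then NLRP12 and SMAP2. NR1H3 was most like CSTB, a cysteine protease inhibitor (r = 0.94), then STARD7 and GPX4. SOAT1 was most like VDAC3, a mitochondrial channel (r = 0.84), then GSR and TMBIM4. No macrophage marker was among the 3 genes of APOE, ABCA1, ABCG1, NR1H3, LIPA or SOAT1.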

How the data were processed

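RNA of milk somatic cells was sequenced on an Illumina HiSeq instrument. Per the labels and the methods of the study, the authors trimmed reads with Trimmomatic, mapped them to the bosTau7 genome with TopHat2 and Bowtie2, and counted them on genes with HTSeq; versions and the strand setting are not given in the sources used here. The deposited values are raw counts per gene and cow. Rows named null (0.036% to 0.1508% of gene counts) and HTSeq's summary rows were left out, and 23 rows named as dates could not be named.

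Counts were scaled with TMM and tested over 12333 genes with edgeR 4.0.16 (quasi-likelihood, trended dispersion, R 4.3.3); errors are the log2 change divided by the root of F. DESeq2 1.42.0 and limma 3.58.1 on log2(CPM + 0.25) were alternatives. The level of a cell type is the mean log2(CPM + 0.25) of its markers with a mean of at least 1 CPM. Spans for the long gene difference (1072 long and 2315 short genes) came from RefSeq ARS-UCD2.0, another build than the files'; 92.3% of genes with a mean of at least 1 CPM had a span. The study's mapping rates split the cows at 85% into a lower set of 16 and a higher set of 5, which holds 1 HY cow. Each set was fitted alone, the higher one with 2 or 3 residual degrees of freedom and not for milk fat, milk yield or the differences in slope.

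Each cow is 1 library. The 9 genes, marker lists and pathway lists were chosen with earlier results of these data known. Up to 4 genes were named per list and comparison, those with the lowest p. TREM2, PLIN2 and the uncalled genes of the lipid-associated macrophage list, all on the macrophage level, were named beyond these after their values were seen. A gene of the lysosomal and stored cholesterol list is not reported here and is left out of its counts. The rules also named the 3 most correlated genes of each member. The scripts were tested on simulated counts. Alternatives covered scaling, count filters, tools, marker choice, covariates, subsets of cows and leaving out each cow. Counts without molecular identifiers measure reads and not independent molecules, so the limit from a count of 0 covers counting error only.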

Additional observations from a re-analysis of the deposited data

How the results depend on the processing

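Over the single-gene results and the alternatives other than leaving out 1 cow, 602 values had the direction and the side of the threshold that the report gives, 25 were no longer past it, 10 came to pass it and 75 changed sign. Of the values past the threshold in the 21 cows, LIPA and FABP5 on the macrophage level and NR1H3 on the T cell level changed sign, each in the 5 cows of the higher mapping rate. The alternatives with the long gene difference, with the T cell level beside lactation, without cows 3262 and 3280, in the 5 cows, and all those of the T cell, neutrophil, epithelial and long gene slopes were chosen after seeing the data. No paired analysis was possible because each cow is in 1 group and the replicate numbers only name samples. The depth limits ABCG1 most, which had a median of 96 counts over the cows and thus under 100 counts in most of them.

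The number of genes called on the macrophage level was 1605 and became 5553 with total counts, 2450 with summed marker CPM, 2906 with CSF1R, CD68 and CD14 only, 209 with the other 3 levels as covariates and 2713 with the long gene difference as covariate. It was 0 in the 5 cows of the higher mapping rate, and 896 to 2070 without 1 cow. Scaling to total counts moved the median macrophage slope of all genes to 0.39, and ABCA1 (1.46), NPC2 (0.57) and FABP4 (0.97) then passed the test. NPC2 also passed with at least 10 counts in every cow (adjusted p = 0.0471) and FABP4 with DESeq2 (adjusted p = 0.0382). With CSF1R, CD68 and CD14 only, LIPA (0.32) and FABP5 (0.39) no longer passed and ABCG1 (1.57) did. LIPA also missed with summed marker CPM (adjusted p = 0.126). The number called on lactation was 1 and became 742 with DESeq2, 3 with no covariate, 2 with parity and milk yield and 2 in the 5 cows. It was 0 with limma, with at least 10 counts in every cow, in the 16 cows, without cows 3262 and 3280, and with the macrophage, epithelial, T cell or long gene measure added, and 0 to 280 without 1 cow. The milk fat slope gave 1 gene with yield group added, the milk yield slope 13 with no covariate, and without 1 cow these counts were 0 and 0 to 1. The difference in milk fat slope gave 0 to 1 without 1 cow, and the counts of HY against LY and of the difference in lactation slope stayed at 0. The cause of these changes was not tested.

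With total counts and no further factor, the macrophage slope became 0.19 for NR1H3 and 0.23 for SOAT1, the lactation slope became 0.058 for LIPA, 0.22 for FABP4, 0.15 for FABP5 and 0.10 for SOAT1, the milk fat slope became -0.034 for NR1H3, the difference of HY and LY became -0.13 for NPC2, the milk yield slope became -0.0093 for NR1H3 and the HY minus LY difference in milk fat slope became 0.18 for APOE and 0.38 for SOAT1. In the 16 cows of the lower mapping rate, the macrophage slope became -0.58 for ABCG1, the lactation slope became 0.067 for LIPA, 0.18 for FABP4 and 0.10 for FABP5, the milk fat slope became -0.31 for ABCG1 and -0.044 for NR1H3, the difference of HY and LY became -0.10 for NPC2, the milk yield slope became -0.021 for NPC2, the HY minus LY difference in lactation slope became 0.064 for ABCG1 and -0.19 for FABP4 and the HY minus LY difference in milk fat slope became 1.37 for APOE and 0.020 for ABCG1. With limma, the macrophage slope became 0.22 for NR1H3, the milk fat slope became -0.022 for APOE and -0.27 for ABCG1 and the difference of HY and LY became -0.0096 for APOE and 0.24 for NR1H3. In the 5 cows of the higher mapping rate, the macrophage slope became -2.40 for ABCA1, 2.72 for NR1H3, -1.96 for LIPA, -0.27 for NPC2, -5.73 for FABP4, -0.30 for FABP5 and 0.12 for SOAT1, the lactation slope became 0.13 for NPC2 and 0.080 for SOAT1, the difference of HY and LY became -2.32 for APOE and 0.056 for LIPA and the T cell slope became 0.29 for NR1H3. Without cows 3262 and 3280, the macrophage slope became -0.29 for ABCG1 and 0.078 for NR1H3, the lactation slope became 0.040 for FABP4, the difference of HY and LY became 0.078 for LIPA and 0.033 for FABP5, the milk yield slope became 0.017 for LIPA and 0.020 for FABP5 and the HY minus LY difference in lactation slope became -0.60 for ABCA1 and -0.0090 for LIPA. With DESeq2 size factors, the lactation slope became 0.018 for FABP5. With DESeq2, the lactation slope became 0.018 for FABP5. With library sizes that leave out epithelial and milk protein genes, the lactation slope became 0.0040 for FABP5. With the summed CPM of the markers, the macrophage slope became 0.032 for NR1H3. Without CD14, MSR1, MERTK and the C1Q genes as markers, the macrophage slope became -1.15 for ABCG1. With the other 3 levels as covariates, the macrophage slope became -0.15 for ABCG1 and 0.44 for NR1H3. With lactation period and parity as covariates, the macrophage slope became 0.20 for NR1H3. With the long gene difference as covariate, the macrophage slope became -0.031 for ABCG1 and 0.30 for NR1H3. With milk yield added, the lactation slope became 0.14 for FABP4. With the macrophage level added, the lactation slope became 0.0079 for FABP5. With the epithelial level added, the lactation slope became -0.00086 for APOE and 0.14 for FABP4. With the T cell level added, the lactation slope became -0.012 for APOE, 0.0053 for FABP4, 0.0081 for FABP5 and 0.051 for SOAT1. With the macrophage level beside parity and lactation period, the milk fat slope became -0.082 for APOE and the milk yield slope became -0.048 for APOE. Within HY alone and with no covariate, the milk fat slope became -0.79 for APOE, -0.20 for ABCG1, 0.22 for LIPA and 0.061 for NPC2. With the macrophage level as covariate, the difference of HY and LY became -0.18 for APOE. With no covariate, the milk yield slope became -0.072 for NR1H3.

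Without 1 cow, the macrophage slope ranged from -0.54 to 0.68 for ABCG1 and -0.11 to 0.40 for NR1H3. With each cow left out, the lactation slope ranged from -0.031 to 0.41 for APOE, -0.31 to 0.068 for FABP4, -0.11 to 0.049 for FABP5 and -0.14 to 0.065 for SOAT1. On leaving out 1 cow, the milk fat slope ranged from -0.056 to 0.39 for APOE, -0.11 to 0.49 for ABCG1, -0.10 to 0.35 for NR1H3 and -0.14 to 0.034 for NPC2. With 1 cow left out, the difference of HY and LY ranged from -0.29 to 0.95 for ABCA1, -1.43 to 0.13 for ABCG1, -0.21 to 0.28 for NR1H3, -0.0020 to 0.19 for NPC2 and -0.23 to 0.029 for FABP5. Across the 21 fits without 1 cow, the milk yield slope ranged from -0.010 to 0.11 for APOE, -0.062 to 0.078 for NR1H3, -0.046 to 0.017 for LIPA, -0.0029 to 0.040 for NPC2 and -0.039 to 0.017 for FABP5. Over the fits that leave out 1 cow, the HY minus LY difference in lactation slope ranged from -0.71 to 0.24 for APOE, -0.29 to 0.86 for ABCA1, -0.74 to 0.48 for ABCG1, -0.053 to 0.84 for NR1H3, -0.11 to 0.28 for NPC2 and -0.24 to 0.85 for FABP4. When 1 cow was left out, the HY minus LY difference in milk fat slope ranged from -1.93 to 0.45 for APOE, -2.57 to 2.05 for ABCG1, -0.11 to 0.49 for NPC2, -0.37 to 2.33 for FABP4 and -0.58 to 0.27 for SOAT1.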
